A study of Mus musculus with 70 samples.

Results

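Transcripts of 9 secreted matrix genes were followed while RENCA cells, a mouse renal adenocarcinoma line, were passaged in mice. The set holds the small leucine-rich proteoglycans decorin (Dcn), biglycan (Bgn), asporin (Aspn), lumican (Lum), fibromodulin (Fmod) and osteoglycin (Ogn), the matrix Gla protein Mgp, and the matrix glycoproteins Sparc and tenascin C (Tnc). Its members were taken by gene name or transcript from the non-control probes of the array, which gave 12 probes for 9 of 21154 named genes. The 9 genes were chosen by function and with their levels in these arrays already known, above all the P0 and P6 levels of Mgp and Ogn, so the courses of Mgp and Ogn are described here without a test. The other 7 genes were entered in fits over all probes, where 5 were bright enough to be tested. Because they were picked with results in view, their p-values are not independent evidence.

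Small leucine-rich proteoglycans are secreted proteins that bind collagen and help set the spacing of its fibrils, and several of them also bind growth factors of the TGF-beta family. Decorin, biglycan and asporin share a class by sequence, lumican and fibromodulin belong to another, and osteoglycin to yet another. Mgp carries glutamates modified by a vitamin K-dependent enzyme, restrains calcification of soft tissue and binds bone morphogenetic proteins. Sparc binds collagen and calcium, and tenascin C is a large glycoprotein laid down in wounds and tumour stroma. Fibroblasts and smooth muscle cells are the usual makers of most of these proteins in lung and kidney.

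All arrays measured RENCA cells that carried a lentiviral GFP transgene, per the study's methods, and the mice were wild type female BALB/c of 6 weeks. P0 was the line before any passage in mice, and P1 to P6 followed 1 to 6 rounds of injection and recovery by 3 routes: cells placed under the renal capsule and recovered from the kidney tumour (KPT), cells injected into the tail vein and recovered from lung tumours (T-LM), and cells placed under the renal capsule and recovered from lung metastases (K-LM). The methods describe cultures of digested tumours kept until GFP-negative cells were no longer seen, whereas the labels' extraction protocol describes homogenised samples. P0 had 2 RNA samples, and from P1 to P6 there were 5, 2, 2, 3, 5 and 5 of KPT, 5, 2, 3, 4, 6 and 4 of T-LM, and 1, 1, 5, 3, 4 and 3 of K-LM. The study describes several mice for each route and passage, but the labels do not tie samples to mice or cultures, so p-values measure the spread between these samples, which may be technical. A P1 sample with LOT1 in its title was placed in T-LM by its other labels.

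Levels are log2 signals relative to the 75th percentile of the probes detected on all arrays, so that 0 is a bright probe and values near -9 lie at background. "Detected" means that the scanner software called the probe well above background. A level belongs to its own probe and was not set against that of another gene. The 70 arrays held 65 RNA samples, since both P0 samples and 3 KPT P6 samples were hybridised again on a late slide, which also held all 3 K-LM P6 samples. Between 25.2% and 55.2% of probes were detected per array. How many arrays a group had bounds the precision. Over the 5 samples run on both slides the late array differed from the first by -1.51 to 0.28 for Mgp and by -0.14 to 0.45 for Ogn. The 8 epithelial tumour markers, keratins among them, had a summed log2 level of 3.35 to 4.39 over all samples. Such a sum follows its brightest genes. Of the 8, 4 were detected in at least 1 P0 sample and 8 in at least 1 T-LM P6 sample. T-LM P5 replicate 1 stood apart in fibroblast markers, with a summed level of 5.53 against 2.93 to 3.68 in the other 5 T-LM P5 samples, and results that rest on it are given with and without it.

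Mgp went from background in the parental line to a bright signal in both lung routes. In P0 the levels were -9.46 and -8.88, neither of them detected. At P6 the 5 KPT samples had -5.25, -4.41, -4.35, -3.81 and -4.06, the 4 T-LM samples -0.38, -0.16, -1.35 and -1.89, and the 3 K-LM samples -0.34, 0.01 and 1.53. No P6 sample of any route overlapped P0, and no T-LM or K-LM sample overlapped KPT. Against P0 the mean level was 4.79 higher in KPT, 8.22 higher in T-LM and 9.57 higher in K-LM. Since Mgp was not detected in P0, these correspond to signals at least 5.59-fold, 60.3-fold and 153-fold higher, with P0 raised to the lowest detected signal of its arrays. Every "at least" given here rests on that limit. A higher one, the 1st percentile of the detected signals of each array, gave log2 differences of 2.24, 5.67 and 7.02 for Mgp, which are smaller than these bounds.

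The rise of Mgp was not steady with passage. In KPT the mean level was -3.29 ± 1.84 (SD, n = 5) at P1, and at P2 and P3 Mgp was undetected in all 4 samples, which lay between -9.25 and -7.59. It came back at P4 in 2 of 3 samples (-2.65 and -5.47, with the remaining one at -9.27) and at P5 in all 5, which lay between -5.35 and -0.65. So the KPT course was high after the first round, at background in P2 and P3 and high again from P5, and P1 and P6 samples overlapped.

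In T-LM, 4 of the 5 P1 samples had Mgp at 0.11, 2.8, 2.28 and 2.24, while the sample labelled LOT1 was undetected at -7.63. The 2 P2 samples had -3.15 and -3.64, and at P3 only 1 of 3 samples was detected, at -2.53 against -8.7 and -8.58. From P4 on every T-LM sample was detected. The 4 P4 samples had -0.08, 0.81, -2.48 and -0.42, and the 6 P5 samples had a lowest level of -0.66, a median of -0.23 and a highest of 2.81, the last in replicate 1. K-LM followed the same outline with 3.12 in its only P1 sample, -3.33 in its only P2 sample, -8.53 to -4.04 at P3, and -2.26, 2.32 and 2.15 at P4. At P5 the K-LM samples had 0.34, -1.74, 0.56 and -1.73, so that P4, P5 and P6 overlapped in both lung routes.

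**Figure D1:**
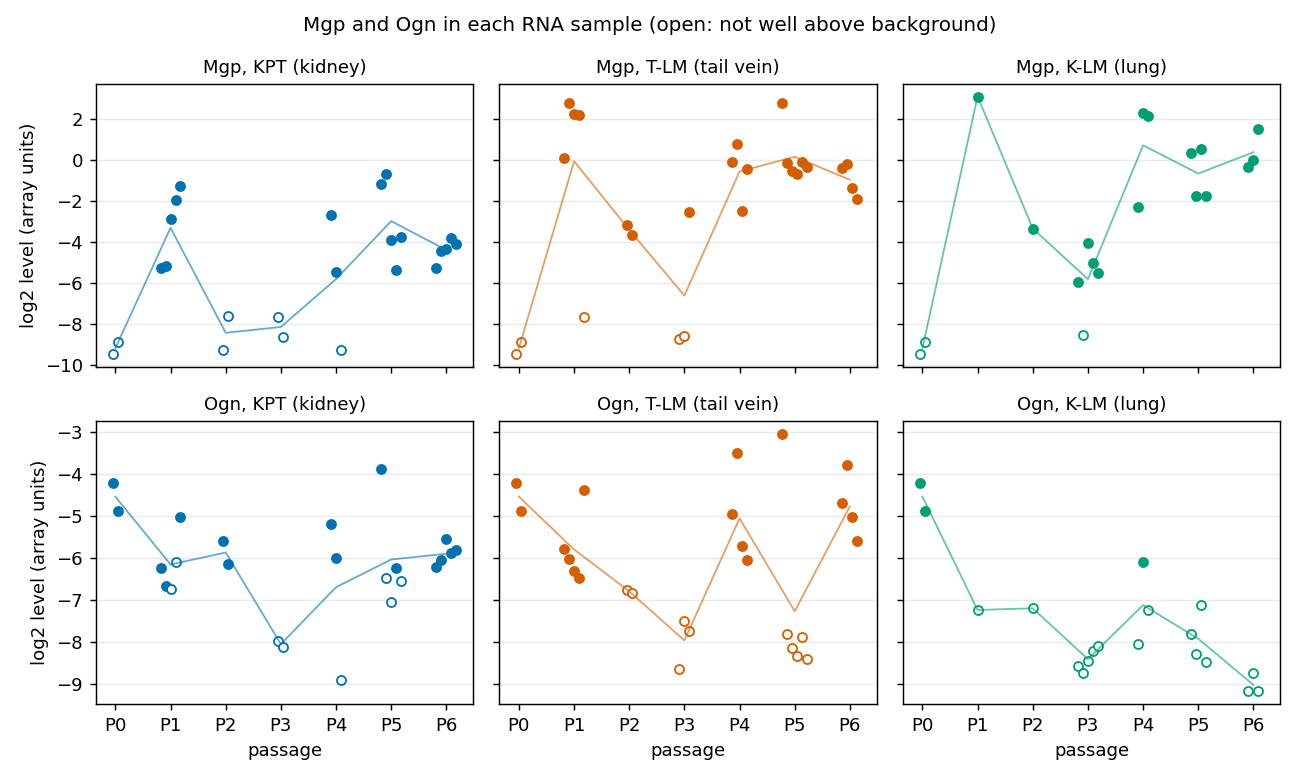
Log2 level of Mgp (upper row) and Ogn (lower row) in each RNA sample by passage, for KPT, T-LM and K-LM, with P0 repeated in each panel; points are samples, open where not well above background, and lines join group means. Mgp lies at background in P0 and at -1.89 or above in the P6 lung routes, while Ogn is detected in P0 and at background in all 3 K-LM P6 samples.

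Ogn, whose protein is found in bone and in vessel walls, started detected and ended at background in K-LM alone among the P6 groups. Its P0 levels were -4.21 and -4.87. At P6 the KPT samples had -6.21, -6.06, -5.55, -5.88 and -5.8, all below P0. The T-LM P6 samples had -4.68, -3.79, -5.02 and -5.59 and overlapped P0. The K-LM P6 samples had -9.16, -8.74 and -9.18, none of them detected. Relative to P0 the mean was lower by 1.36 in KPT (difference of -1.36), by 0.23 in T-LM (difference of -0.23) and by 4.48 in K-LM (difference of -4.48), the last a signal at least 6.58-fold lower (log2 difference of -2.46 with the higher limit). In T-LM the sign of that small difference rested on single samples, being 0.1 without P0 replicate 1 and 0.05 without T-LM P6 replicate 4.

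Between these end points Ogn also dipped at P3, where it was undetected in all 10 samples of the 3 routes. The log2 index of 19 long mRNAs relative to 45 ribosomal protein mRNAs, a sign of RNA quality, was also low there, at -10.24 to -7.83 at P3 and -9.07 to -8.83 in KPT P2, where Mgp was undetected, against -8.48 to -7.19 at P6. It was low at P5 too, at -8.97 to -7.91 in KPT, -9.76 to -8.14 in T-LM and -9.88 to -9.01 in K-LM. Of the 15 P5 samples, Mgp was detected in all and Ogn in 3. The part of the index in these dips was not tested. The KPT P3 samples had -7.98 and -8.13, the T-LM P3 samples -8.65, -7.51 and -7.74, and the K-LM P3 samples lay between -8.74 and -8.09. In K-LM it was detected in only 1 of the 17 samples from P1 to P6, at -6.1 in P4 replicate 3. In T-LM it returned at P4 (-4.96, -3.51, -5.72 and -6.04), was undetected again in 5 of 6 samples at P5 (-8.42 to -7.81, with replicate 1 at -3.04) and was detected in all 4 samples at P6. In KPT, P5 replicate 1 had -3.88 against -7.05 to -6.23 in the other 4 samples.

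Set side by side, the means of Mgp and Ogn moved in opposite directions from P0 to P6 in all 3 routes, by little for Ogn in T-LM. From P1 to P6 the differences were -1.09 for Mgp and 0.26 for Ogn in KPT, and -0.91 and 1.03 in T-LM. From P3 to P6 the mean of Mgp was higher by 3.76 in KPT and that of Ogn by 2.15, and in T-LM the differences were 5.66 and 3.2. In K-LM they parted, with 6.2 for Mgp and -0.61 for Ogn, whose P3 and P6 samples were all undetected. Over the 65 RNA samples the levels of the pair had a Pearson r of 0.1 and a Spearman rho of 0.07. Within routes, P0 left out, r was 0.6 in KPT (n = 22), 0.29 in T-LM (n = 24) and 0.42 in K-LM (n = 17). These values are descriptions over samples that share lineage, slide and signal at background.

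Of the 19 groups ordered by their mean Mgp level, K-LM P1, K-LM P4 and K-LM P6 stood highest and P0 lowest, and 16 of the 18 neighbouring pairs overlapped. For Ogn, P0, T-LM P6 and T-LM P4 stood highest and K-LM P6 lowest, and 17 of 18 neighbouring pairs overlapped. Among the genes whose levels over the 65 samples were most like that of Mgp, of 11418 detected on at least 10 arrays, were Cpe (Pearson r = 0.936), Adamts2 (0.933), Fstl1 (0.933) and Fkbp10 (0.932). Adamts2 removes the amino-terminal propeptide of fibrillar procollagens and Fkbp10 is a collagen chaperone of the endoplasmic reticulum. For Ogn they were Igf1 (0.819), an insulin-like growth factor, Fxyd6 (0.77), Ccdc80 (0.766), Mgll (0.752) and Sorcs2 (0.713).

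Decorin gave the most even change of the set: it was near background in P0 and detected in every passaged sample. The P0 levels were -7.41 and -8.25, and only the first was detected, on its late-slide array alone. On the first arrays, which the KPT and T-LM fits used, Dcn was undetected in both P0 samples, at -7.43 and -7.72. At P6 the KPT samples had -2.26, -2.24, -2.41, -2.2 and -2.23, the T-LM samples -0.23, 0.4, -0.31 and -0.72, and the K-LM samples -1.55, -2.41 and -0.9. All P6 samples lay above both P0 samples. The fitted rise was 5.29 in KPT (SE 0.44, limma adjusted p = 5.12e-07). For T-LM it was 7.36 (SE 0.67, limma adjusted p = 2.23e-07), and for K-LM 6.29 (SE 0.78, limma adjusted p = 3.29e-06). Each rise passed the threshold of 0.01 in every alternative run. Its size depended on the dim P0 signal. With the higher limit the KPT rise was 3.69, that of T-LM 5.76 and that of K-LM 5.14.

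Nearly all of the rise of Dcn was present after the first rounds. Its mean was -1.98 ± 1.46 (SD, n = 5) in KPT P1, -0.57 ± 0.997 (SD, n = 5) in T-LM P1 and 1.24 in the single K-LM P1 sample, and the change from P1 to P6 was -0.3 in KPT (SE 0.51, limma adjusted p = 0.719) and 0.35 in T-LM (SE 0.55, limma adjusted p = 0.691). From P3 to P6 Dcn rose in T-LM, from -3.25, -3.8 and -3.23 to the P6 values above, by 3.21 (SE 0.59, limma adjusted p = 0.00101). In KPT that change was 0.61 (SE 0.44, limma adjusted p = 0.456) and in K-LM 1.3 (SE 0.73, limma adjusted p = 0.209). With the long mRNA index as a covariate the T-LM change of Dcn was 3.55 (limma adjusted p = 0.00121), and with the replicate number as a block it was 3.06 (0.0118), past the threshold no longer.

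Lumican, which like decorin decorates collagen fibrils, rose in T-LM. In P0 it was undetected at -9.37 and -8.65, and at T-LM P3 it was undetected at -8.54, -9.33 and -8.88. The T-LM P4 samples had -6.64, -4.75, -5.21 and -5.84 and the T-LM P6 samples -4.59, -3.74, -4.07 and -4.95, all 8 detected and all above P0. At P5 only replicate 1 was detected, at -2.88, while the other 5 lay between -8.09 and -7.49. In the T-LM fit without P1, Lum passed the filter on dim probes only through P4 to P6. The fitted change from P0 to P6 was 4.03 (SE 0.99, limma adjusted p = 0.0092), a signal at least 5.74-fold higher, and that from P3 to P6 was 4.58 (SE 0.87, limma adjusted p = 0.00139), at least 5.39-fold. With the higher limit these changes were 1.64 (limma adjusted p = 0.196) and 2.15 (0.0313), and with the replicate number as a block 4.5 (0.0149) and 4.39 (0.0127), so neither call held there. The P0 to P6 call did not survive leaving out any single P0 or T-LM P6 sample, with limma adjusted p from 0.0126 without T-LM P6 replicate 4 to 0.112 without P0 replicate 1, and it was 8.99e-07 without T-LM P5 replicate 1. From P1 to P6 in T-LM the change was 2.56 (SE 0.84, limma adjusted p = 0.0366), and 0.00248 without T-LM P5 replicate 1.

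In the other routes Lum mostly stayed at background. It was detected in 1 of 5 KPT P6 samples, at -6.91 against -9.2 to -8.28 in the others, and in none of the K-LM P6 samples, which had -9.44, -9.52 and -9.26. The change from P0 to P6 was 0.17 in KPT (SE 0.8, limma adjusted p = 0.947) and -0.02 in K-LM (SE 0.93, limma adjusted p = 0.994). Earlier K-LM passages held it, with -5.11 in the P1 sample and -3.8 and -3.1 in 2 of the 3 P4 samples.

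Biglycan, the closest relative of decorin among the members, was detectable in most samples and varied widely within groups. P0 had -6.66 and -6.26. At P6 the KPT samples had -5.95, -5.4, -5.84, -5.9 and -7.01, the T-LM samples -4, -3.65, -4.38 and -5.4, and the K-LM samples -4.41, -4.43 and -3. KPT overlapped P0, and the lung routes lay above it. The change from P0 was 0.35 in KPT (SE 1, limma adjusted p = 0.91), 1.9 in T-LM (SE 0.81, limma adjusted p = 0.158) and 2.68 in K-LM (SE 0.84, limma adjusted p = 0.0427), none past the threshold. Within KPT P5 the samples ran from -6.74 to -2, the brightest being replicates 1 and 2 at -2.11 and -2.

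Fmod and Aspn were not detected in any of the 65 samples. Their levels lay between -9.3 and -6.8 and between -9.72 and -7.23, so no change could be read from them. Several of these genes lie next to each other in the mouse genome (RefSeq, assembly GRCm38.p6, used for gene order only). On chromosome 10, Dcn and Lum were detected in 64 and 19 of the 65 samples, while the next genes of that row, Kera and Epyc, were detected in none. On chromosome 13, in the row Ecm2, Aspn, Omd and Ogn, Ogn was detected in 31 samples, Ecm2 in 3 and the other two in none. Fmod lies on chromosome 1, and its relative Optc on that chromosome was not detected either. Mgp, Bgn, Sparc and Tnc lie on chromosomes 6, X, 11 and 4.

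**Figure D2:**
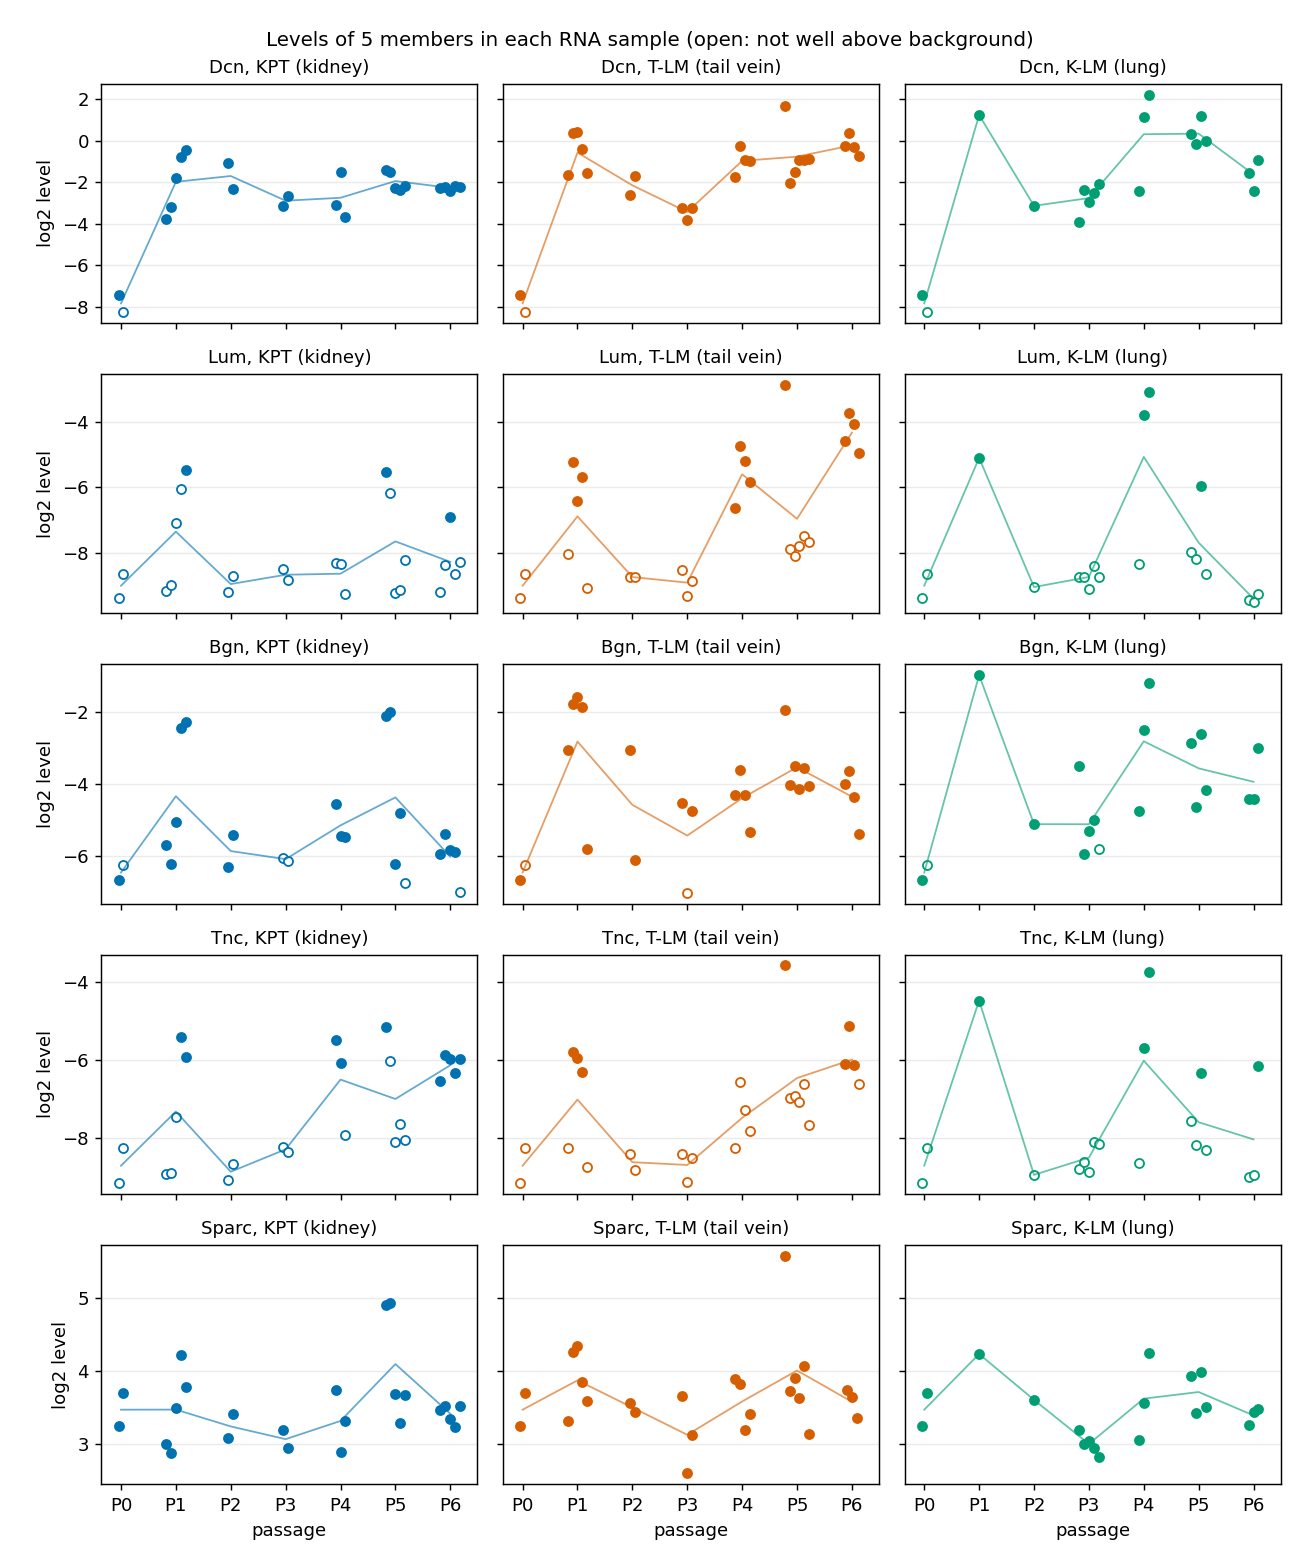
Log2 levels of Dcn, Lum, Bgn, Tnc and Sparc (rows) in each RNA sample by passage, for KPT, T-LM and K-LM (columns), with P0 repeated in each column; points are samples, open where not well above background, and lines join group means. Dcn leaves background in all routes, Lum is detected in all T-LM P6 samples and in none of K-LM P6, and Sparc stays between 2.59 and 5.58 throughout.

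Sparc was bright from the start and did not rise. The P0 levels were 3.24 and 3.69, and P6 samples had 3.46, 3.51, 3.34, 3.23 and 3.51 in KPT, 3.73, 3.64 and 3.35 in T-LM, where the spot of replicate 3 was marked as an outlier and left out, and 3.26, 3.43 and 3.47 in K-LM. All routes overlapped P0. The change from P0 to P6 was -0.27 in KPT (SE 0.38, limma adjusted p = 0.786), -0.2 in T-LM (SE 0.48, limma adjusted p = 0.884) and 0.12 in K-LM (SE 0.27, limma adjusted p = 0.867). From P3 to P6 in K-LM it was 0.8 (SE 0.25, limma adjusted p = 0.032), and 0.39 without the term for the late slide. A second detected probe of Sparc had changes from P0 of -0.04, 0.11 and 0.17, also none past the threshold.

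Tenascin C was undetected in P0, at -9.15 and -8.26. At P6 it was detected in all 5 KPT samples (-6.53, -5.86, -5.96, -6.32 and -5.98), in 3 of 4 T-LM samples (-6.1, -5.11 and -6.13, with the undetected one at -6.6) and in 1 of 3 K-LM samples (-6.15, with the others at -8.99 and -8.95). KPT and T-LM lay above P0 without overlap, and K-LM overlapped it. A second, dimmer probe of Tnc was detected at P6 in 2 of 5 KPT, 1 of 4 T-LM and 0 of 3 K-LM samples. Its means differed from P0 by 1.56, 1.47 and 0.01, and this probe failed the filter in the KPT and T-LM fits from P0. From P1 to P6 in T-LM its change was -0.11 against 1.03 for the brighter probe, neither past the threshold. The fitted changes of the brighter probe from P0 did not pass the threshold. They were 2.06 in KPT (SE 0.69, limma adjusted p = 0.0995), 2.21 in T-LM (SE 0.76, limma adjusted p = 0.0686) and 0.88 in K-LM (SE 0.88, limma adjusted p = 0.655). From P3 to P6 in T-LM the change was 2.7 (SE 0.67, limma adjusted p = 0.0107). In the T-LM fit Tnc passed the filter on dim probes only through P5 and P6, and in the KPT fit only through P4 to P6. T-LM P5 replicate 1 had Tnc at -3.57 against -7.65 to -6.6 in the others of its group. Without that sample both T-LM changes passed the threshold, with limma adjusted p = 0.00111 from P0 and 4.44e-05 from P3. Without it, and in fits of the compared groups only, Tnc passed the filter only through P6, where it was high. The change from P3 also passed with the long mRNA index as a covariate (3.31, limma adjusted p = 0.00366), the slide as a random block (0.00938) and the compared groups only (0.00243). The KPT change from P0 passed in the deposited values (0.00722) and in the compared groups only (0.000216), whereas with dim signals raised to the 1st percentile limit it was -0.12 (limma adjusted p = 0.882) and that in T-LM was 0.06 (0.963).

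Counted over the 7 members other than Mgp and Ogn, of which 5 passed the filter on dim probes, the calls from P0 to P6 were 1 in KPT (Dcn), 2 in T-LM (Dcn and Lum) and 1 in K-LM (Dcn), against 3.8%, 7.24% and 5.66% of all probes tested. From P3 to P6 they were 0 in KPT, 2 in T-LM (Dcn and Lum) and 0 in K-LM, against 0.787%, 7.05% and 5.78% of all probes. From P1 to P6 limma called 0 in KPT and 0 in T-LM, where 11.7% and 9.08% of all probes were called. Where none was called, the members with an unadjusted p under 0.05 numbered 1 from P3 to P6 in KPT, 1 in K-LM, 0 from P1 to P6 in KPT and 1 in T-LM. Every call was a rise, and such small counts were not read as particular to the members.

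The routes were then compared at P6, which is also the test of whether the change from P0 differed between routes, since they share P0. Dcn was higher in T-LM than in KPT by 2 (SE 0.29, limma adjusted p = 7.81e-05), and Lum by 3.77 (SE 0.37, limma adjusted p = 8.22e-07), with no overlap between the samples of either gene. In one model of all arrays the Dcn call was lost (limma adjusted p = 0.0455). The calls of Dcn and Lum were 2 of the 5 members tested, against 11.3% of all probes tested. Lum was also lower in K-LM than in T-LM, by a fitted difference of -4.27 (SE 0.5, limma adjusted p = 1.25e-05), the only call of the 5 tested there, against 11.7% of all probes tested. The signal was at least 7.58-fold lower, and the fitted difference was -1.8 (limma adjusted p = 0.000604) with the higher limit. In this fit Lum passed the filter on dim probes only through T-LM, the group in which it was high, so its p-values are not independent evidence. At P6 Lum was detected in 4 of 4 T-LM samples and 0 of 3 K-LM samples. All K-LM P6 arrays and no T-LM array lay on the late slide. At P4 the K-LM samples ran from -8.34 to -3.1 and the T-LM samples from -6.64 to -4.75. At P5 the difference between K-LM and T-LM was -0.73 (SE 1, limma adjusted p = 0.68), with overlap. Mgp, bright in both lung routes, had overlapping samples in T-LM and K-LM at P6.

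Bgn was higher in K-LM than in KPT by 2.19 (SE 0.52, limma adjusted p = 0.00483), the only 1 of 5 tested members called in that comparison, against 15.3% of all probes tested. This call was lost without KPT P6 replicate 4 (limma adjusted p = 0.0133) and without K-LM P6 replicate 3 (0.0365), and also with the replicate number as a block (0.0251), in one model of all arrays (0.144) and in the compared groups only (0.0113). The difference of Bgn between T-LM and KPT was 1.51 (SE 0.45, limma adjusted p = 0.024), with overlap, and it passed without T-LM P6 replicate 4 (1.86, limma adjusted p = 0.00841). For Tnc the difference between K-LM and KPT was -1.61 (SE 0.54, limma adjusted p = 0.0364), and it was -2.55 (limma adjusted p = 0.000265) without K-LM P6 replicate 3, the only K-LM P6 sample in which Tnc was detected. Leaving out that sample also brought 2 differences between K-LM and T-LM past the threshold, that of Tnc (-1.63 with it, -2.57 and limma adjusted p = 0.000668 without it) and that of Dcn (-1.25 with it, -1.61 and limma adjusted p = 0.00858 without it). Ogn, by description, was at least 2.57-fold lower in K-LM P6 than in KPT P6 and at least 5.62-fold lower than in T-LM P6.

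At P5, a passage with no arrays on the late slide, none of the 5 members tested was called by limma between T-LM and KPT, K-LM and KPT, or K-LM and T-LM, against 5.31%, 7.37% and 3.41% of all probes tested, and 1, 1 and 0 had an unadjusted p under 0.05. Dcn came nearest, with K-LM samples at 0.35, -0.13, 1.18 and -0.02 and KPT samples at -1.41, -1.5, -2.26, -2.36 and -2.16. The difference was 2.29 (SE 0.56, limma adjusted p = 0.0117), and the samples did not overlap. Without T-LM P5 replicate 1, Dcn was also higher in K-LM than in T-LM, by 1.59 (SE 0.32, limma adjusted p = 0.00667). The Dcn difference between K-LM and KPT passed the threshold in 9 of the 22 settings run.

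**Figure D3:**
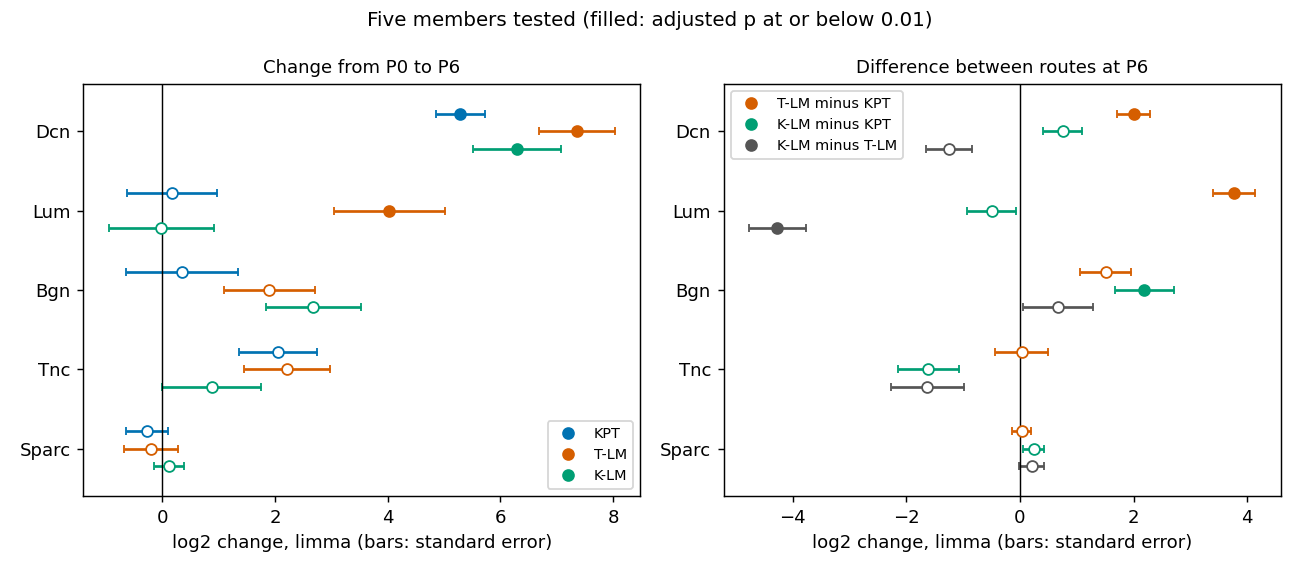
Fitted log2 change from P0 to P6 by route (left) and difference between routes at P6 (right) for the 5 members that passed the filter on dim probes; points are limma estimates, bars standard errors, and filled points have an adjusted p at or below 0.01. Dcn is filled in all 3 routes on the left (5.29, 7.36 and 6.29), and on the right Lum has the largest differences plotted (3.77 and -4.27).

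Fibroblast markers moved with most of the members. In bulk samples, fewer cells of a type and less RNA per cell cannot be told apart. Of the 12 markers, 6 were detected in at least 1 P0 sample, 9 in KPT P6, 10 in T-LM P6 and 11 in K-LM P6, and their summed log2 level was 0.93 to 1.21 in P0, 2.23 to 2.48 in KPT P6, 2.59 to 3.39 in T-LM P6 and 2.53 to 3 in K-LM P6. The collagen gene Col1a1 had a mean of -7.79 in P0, -3.64 in KPT P6, -0.46 in T-LM P6 and -1.57 in K-LM P6. Among defining markers Dpt was detected in no sample of these 4 groups, and Pdgfra and Fap in none of P0 or KPT P6. The P1 samples rich in Mgp were rich in these markers too, with 3.79 to 4.37 in T-LM against 1.15 in the LOT1 sample. Their part in the results was not tested.

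Over the 63 samples with all 12 markers measured, the summed fibroblast level had a Pearson r of 0.82 with Mgp, 0.83 with Bgn, 0.75 with Dcn, 0.72 with Lum, 0.72 with Tnc and, over 62 samples, 0.68 with Sparc. With Ogn it was 0.19. Smooth muscle and pericyte markers gave similar values over 65 samples, with r = 0.74 with Mgp, 0.72 with Bgn, 0.64 with Dcn, 0.71 with Lum and 0.76 with Tnc. They gave 0.78 with Sparc over 64 samples and 0.36 with Ogn. The r of Tnc and Sparc was thus higher than with fibroblast markers. Endothelial and leukocyte markers lay between -0.26 and 0.15 for all 7 detected members. Lum and Dcn were highest among the P6 groups in T-LM. There, 7 of 8 lung epithelium markers were detected in at least 1 sample and 3 in all 4. Their summed level was -2.58 to -0.54, against -5.29 to -5.21 in P0 and -3.95 to -3.36 in K-LM P6. Other lists moved too. In T-LM P6, 9 of 10 leukocyte and 8 of 8 epithelial tumour markers were detected in at least 1 sample, against 5 and 4 in P0. The part of these markers in the results was not tested either.

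**Figure D4:**
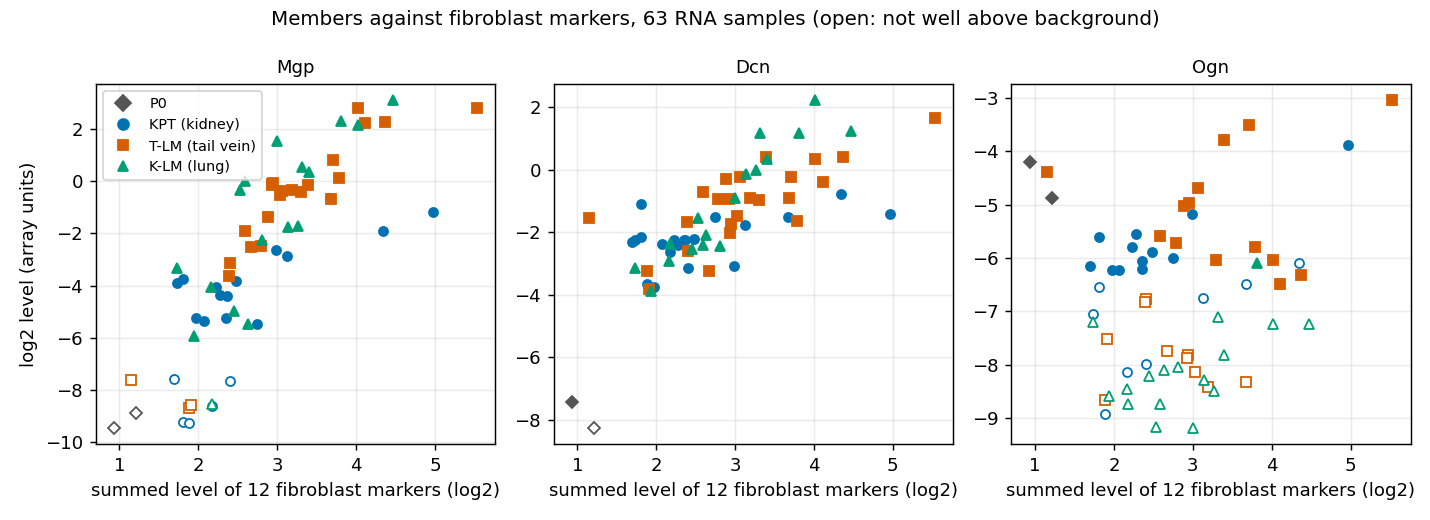
Log2 level of Mgp, Dcn and Ogn (panels) against the summed log2 level of 12 fibroblast markers in 63 RNA samples; symbols and colours give the route or P0, and open symbols are samples in which the member was not well above background. Mgp and Dcn increase along the marker axis (r = 0.82 and 0.75) and Ogn does not (r = 0.19).

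The other genes of these pathways were read from related lists, also drawn up with earlier results known. Their counts from P0 to P6 stand beside 3.8%, 7.24% and 5.66% of all probes called in KPT, T-LM and K-LM, and were not read as particular to a list. Of 11 further small leucine-rich proteoglycans, 10 were on the array by name and at most 3 passed the filter in any P0 to P6 fit, with none called in any route. Of 10 relatives of Sparc and tenascin, 3 rose in T-LM, none in KPT and 1 in K-LM. They were Fstl1 (6.28 in T-LM, SE 1.1, limma adjusted p = 0.000461, and 4.62 in K-LM, SE 0.94, limma adjusted p = 0.00157), Sparcl1 (4.75 in T-LM, at least 8.87-fold) and Smoc2 (2.72 in T-LM, at least 2.77-fold). The median change of the tested genes in that list was 0.36, 2.72 and 1.24 in KPT, T-LM and K-LM, against -0.02, 0.01 and 0.01 over all probes.

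Ligands and antagonists of the BMP family, which Mgp binds, rose in part. Of 11 genes, KPT had 2 that rose from P0 to P6, T-LM 4 and K-LM 3, with medians of 0.7, 4.05 and 2.32 over the 7 tested. Bmp4, a ligand, rose in all 3 routes, by 3.2 in KPT (SE 0.37, limma adjusted p = 1.69e-05), 5.28 in T-LM (SE 0.44, limma adjusted p = 8.37e-08) and 3.24 in K-LM (SE 0.72, limma adjusted p = 0.00332). In T-LM the antagonist Grem1 rose by 6.64 (at least 35.1-fold) and in K-LM by 6.76 (at least 18.7-fold), and the activin antagonist Fst by 5.79 in T-LM (at least 19.3-fold). Of 7 genes of the Gla proteins and the vitamin K cycle, which supplies the modification of Mgp, 2 rose in KPT, 1 rose and 1 fell in T-LM and none was called in K-LM. The rises were of Bglap2 (3.82 in KPT and 1.4 in T-LM) and Bglap (2.06 in KPT), near-identical copies whose probes may share signal, and the fall was of Gas6, a ligand of the TAM receptors (-1.58, SE 0.37, limma adjusted p = 0.00683).

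Of 9 TGF-beta ligands and latency proteins, none was called in KPT, 3 rose in T-LM, and 2 rose and 1 fell in K-LM. The latent TGF-beta binding protein Ltbp2 rose in T-LM (6.59) and in K-LM (6.95), as did Lrrc32, which anchors latent TGF-beta on the cell surface (6.66 and 5.95), and the TGF-beta-induced matrix protein Tgfbi rose in T-LM (3.57). Among 25 genes of glycosaminoglycan chain assembly, which build the side chains of Dcn and Bgn, the sulfotransferase Chst7 rose in all 3 routes by 2.59, 2.42 and 3.13, and Ust, another sulfotransferase, fell by 2.56 in KPT and by 2.01 in T-LM, and no other gene of the list was called. Of 17 receptors for the members, the integrin subunit Itgb3 rose in all 3 routes, by 4.38 in KPT (SE 0.45, limma adjusted p = 5.02e-06), 5.11 in T-LM (SE 0.26, limma adjusted p = 1.36e-10) and 4.6 in K-LM (SE 0.47, limma adjusted p = 1.84e-07). Itga9 and Itgb6 rose in T-LM alone among the calls, by 2.6 and 2.44. At P6, 3 of the 16 receptors tested were higher in T-LM than in KPT and none lower, against 11.3% of all probes. In K-LM 1 was higher and 4 were lower than in T-LM, against 11.7%, and 1 was higher and 1 lower than in KPT, against 15.3%. Which receptors these were is not given here. Of 22 other matricellular glycoproteins, 2 rose in KPT, 4 rose and 1 fell in T-LM and 6 rose in K-LM, led by fibronectin (Fn1), with a rise of 8.3 in T-LM (at least 126-fold) and one of 7.92 in K-LM (at least 54.1-fold), with Ccn2 (6.63 and 4.3) and the basement membrane protein Nid1 (4.68 and 4.72).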

How the data were processed

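RNA from each sample was labelled with Cy5 and hybridised to 1-colour Agilent mouse arrays. The deposited scanner files give spot intensity, raw and as processed by the authors' Feature Extraction software (11.0.1.1, and 12.0.2.2 for the 8 arrays of the late slide), which subtracts background. The deposited series values are log2 values that matched the quantile-normalized raw median intensity to within 0.105 and served as an alternative. Control and outlier spots (0.366% of spots were outliers) were left out and spots averaged into 55681 probes, of which 28026 were named through RefSeq accessions. No build is named for the array, so no coordinates are given, and no sequences are printed.

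Levels are log2 of the processed intensity minus the 75th percentile, per array, over the 12209 probes detected on all arrays. Repeat arrays were averaged for levels. Changes were fitted with limma 3.58.1 (R 4.3.3, statmod 1.5.0), 2-sided, on probes detected on at least 2 arrays of the fit, with Benjamini-Hochberg adjustment over all of them and a threshold of 0.01. KPT and T-LM were fitted separately on first arrays, with P0, and P1 entered only the P1 to P6 fits. The K-LM and P6 fits used the repeat arrays too, with the late slide as a covariate and each RNA sample treated as a random effect, so a fitted change can differ from the difference of group means. For each gene the probe with the highest average signal was read. The fits were tested on simulated data first. The members and lists were chosen with earlier results of these data known. Genes named besides the members are, per related list, up to 3 with the largest change among those called from P0 to P6, and the 5 most correlated with Mgp and with Ogn, of which 1 is not reported here. Summed marker levels are log2 of the sum of unlogged levels. The normexp alternative (offset 50) used the median signal. Figures were drawn with matplotlib.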

Additional observations from a re-analysis of the deposited data

Results flagged for a closer look

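Each set of 4 to 10 samples of a group was searched for a sample far from the rest, in 62 sets over the detected members, and 9 such samples were found. Chance alone marks about 1 in 20 sets. Of the 9, 6 were T-LM P5 replicate 1, in which Mgp was at 2.81 (others -0.66 to -0.09), Ogn at -3.04 (others -8.42 to -7.81), Dcn at 1.67 (others -2.03 to -0.89), Lum at -2.88 (others -8.09 to -7.49), Bgn at -1.95 (others -4.15 to -3.5) and Tnc at -3.57 (others -7.65 to -6.6). Its summed fibroblast marker level was 5.53, against 2.93 to 3.68 in the others, and the part of those markers in its levels was not tested.

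The T-LM P1 sample labelled LOT1 had Mgp at -7.63 while the others had 0.11 to 2.8. Its summed fibroblast marker level was 1.15. KPT P5 replicate 1 had Ogn at -3.88 against -7.05 to -6.23 in the others, with a summed fibroblast marker level of 4.97. KPT P6 replicate 3 had Dcn at -2.41 in a group that otherwise spanned only -2.26 to -2.2.

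The members differed between routes at P6, which tests the change from P0 between routes, in 4 results. With 5 members tested per comparison, the shares of all probes called were 11.3% (T-LM and KPT), 15.3% (K-LM and KPT) and 11.7% (K-LM and T-LM). Such small counts were not read as particular to the members. Dcn differed by 2 between T-LM and KPT (limma adjusted p = 7.81e-05), Lum by 3.77 between T-LM and KPT (limma adjusted p = 8.22e-07), Bgn by 2.19 between K-LM and KPT (limma adjusted p = 0.00483) and Lum by -4.27 between K-LM and T-LM (limma adjusted p = 1.25e-05). In that fit Lum passed the filter on dim probes only through T-LM.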

How the results depend on the processing

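Of 811 values under alternatives, over 42 results, 704 kept their direction and their side of the threshold, stayed within the spread or, for counts of members, stayed near the main count (3 against 2 was taken as kept). A change of sign was seen in 3. Those were Tnc from P0 to P6 in KPT with a floor under dim signals (-0.12), and Ogn from P0 to P6 in T-LM without P0 replicate 1 (0.1) and without T-LM P6 replicate 4 (0.05). The causes were not tested.

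The difference of Mgp between P0 and P6 in KPT, T-LM and K-LM was 3.36, 6.65 and 8.05 with normexp and quantile normalization, 3.64, 6.95 and 8.3 in the deposited values, and 2.24, 5.67 and 7.02 with the floor, and 5.36 for KPT on the late slide only. That of Ogn in K-LM was -2.6, -2.8 and -2.46 with normexp, deposited values and the floor. Leaving out 1 sample gave 4.5 to 5.08, 7.93 to 8.54 and 9 to 9.94 for Mgp, and -1.69 to -1.03, -0.56 to 0.1 and -4.81 to -4.15 for Ogn.

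Counts of members called moved as follows. From P0 to P6 in KPT it was 2 with the deposited values and in a fit of the compared groups only, where P3 to P6 gave 1. From P0 to P6 in T-LM it was 1 with a filter of detection on 50% of arrays, with the floor and under the replicate block, and 1 to 3 on leaving out 1 sample. From P0 to P6 in K-LM it was 2 on the late slide only. From P3 to P6 in T-LM it was 1 with the stricter filter and the floor, and 3 (Dcn, Lum and Tnc) with the long mRNA index as a covariate, the slide as random block and the compared groups only, which also gave 3 from P0 to P6 in T-LM. From P1 to P6 in T-LM it was 0 to 1 on leaving out 1 sample, the 1 being without T-LM P5 replicate 1. Between T-LM and KPT at P6 it was 1 with the stricter filter and in one model of all arrays. Between K-LM and KPT at P6 it was 2 with quantile, normexp, deposited values or no slide term, 0 in one model of all arrays and in the compared groups only, and 0 to 1 on leaving out 1 sample, the 0 being without KPT P6 replicate 4. Between K-LM and T-LM at P6 it was 2 with normexp and deposited values, 0 with the stricter filter, 3 with no slide term, and 1 to 3 on leaving out 1 sample, the 3 being without K-LM P6 replicate 3. At P5 it was 1 between K-LM and KPT with the percentile over all probes, quantile, normexp, deposited values, the stricter filter, the replicate block, the slide as random block, one model of all arrays and the compared groups only, and 0 to 1 between K-LM and T-LM on leaving out 1 sample. The stricter filter tests fewer probes and dropped Lum.

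Replicate numbers were not seen to pair the samples consistently. Same-numbered samples of compared groups had correlations of their deviations from -0.5 to 0.44, and in no comparison was every pair over 0.1. Other pairs ran from -0.66 to 0.75. In groups of 2 samples the deviations mirror each other, so this check cannot exclude pairing. With the replicate block, members called from P0 to P6 in T-LM were 1, from P3 to P6 in T-LM 0, between K-LM and KPT at P6 0 and at P5 1. Leaving out T-LM P5 replicate 1 from the T-LM fits was chosen after seeing the data. The fit of compared groups only was not run from P3 to P6 in K-LM and between K-LM and T-LM at P6, where slide and group cannot be told apart.

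Over all probes, the number called ranged across alternatives from 414 to 1714 (main 797), 826 to 2214 (1549) and 912 to 3037 (1268) from P0 to P6 in KPT, T-LM and K-LM, from 0 to 833 (165), 801 to 1716 (1508) and 116 to 3471 (1295) from P3 to P6, from 1522 to 3178 (2577) and 1146 to 2980 (2132) from P1 to P6 in KPT and T-LM, from 678 to 2998 (2488), 948 to 4135 (3385) and 793 to 4328 (2589) between routes at P6 (T-LM and KPT, K-LM and KPT, K-LM and T-LM), and from 368 to 1524 (1048), 538 to 1607 (1453) and 185 to 725 (673) at P5. Only 2 P0 samples, signals at background and the few arrays per group limit all of these values.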
